A study of Homo sapiens with 6 samples.

Results

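The genes described here are CST6 and 9 related genes of protein turnover in lysosomes: the cystatins CST3, CSTA and CSTB, the cathepsins CTSB, CTSC, CTSD, CTSH and CTSZ, and the asparaginyl protease legumain (LGMN). They were chosen by name, 10 of the 24000 gene entries of the deposited table, with earlier results of the same comparison in view. CST6 had stood out in a comparison of these tumors that left out 1 library, so the differences between the groups are given for the 10 genes as a description, with no test. Each symbol matched 1 entry exactly. All 10 entries had a mean of at least 0.5 FPKM over the 6 tumors, the level required for the comparison across all entries. FPKM counts fragments per kilobase of transcript, scaled for library size in a way that the sources used here do not give.

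The tumors were grown from PC-3, a human prostate cancer cell line without androgen receptor signaling, in nude mice, whose immune system lacks mature T cells but keeps myeloid cells. RNA was sequenced from 6 tumors, 3 of mice given vehicle and 3 of mice given WCE, a standardized extract of the herb Wedelia chinensis. The sample labels give a treatment of 10 weeks for both groups and no dose. The paper describes the cells as carrying a luciferase reporter and as injected into the anterior prostate of male mice. The 6 libraries share this line, host and duration and differ by label only in the treatment.

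Cystatins are tight, reversible inhibitors of papain-like cysteine proteases. The type 1 cystatins CSTA and CSTB, also called stefins, lack a signal peptide and act mainly in the cytosol, whereas the type 2 cystatins CST3 and CST6 are secreted. The cysteine cathepsins, and legumain, which only some cystatins inhibit, are made as inactive precursors. They mature in the acid interior of endosomes and lysosomes, where they degrade proteins and cleave one another. In tumors, secreted cathepsins can cut extracellular matrix, and CST6 is known as an inhibitor of legumain and of cathepsins L and V that is silenced in some cancers.

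A pair of libraries with different labels was nearly identical. Vehicle replicate 3 and WCE replicate 1 differed by a median of 0.0276 (absolute, log2) over the 1915 most abundant entries, those whose mean reached 50 FPKM, while the remaining 14 pairs lay at 0.0950 to 0.247. Every entry detected in WCE replicate 1 was also detected in vehicle replicate 3. The depth of WCE replicate 1, estimated from the steps of low values, was 25.0% of that of vehicle replicate 3, and the other 4 tumors lay between 64.8% and 85.2%. Read numbers are unknown, and no value therefore has a counting interval. Whether these were 1 library under both labels, or 1 of the labels was wrong, cannot be told apart here. The tumors are kept as labeled, and n = 3 each counts both. If they were 1 library, the comparison would hold fewer independent tumors, and the overlap of the groups for CST6 and CSTA rests on WCE replicate 1. Log2 differences over 6 tumors are therefore followed by those without the pair (2 tumors against 2). The largest gap within the pair among the 10 genes was 0.20 in log2(FPKM + 1), for CST6.

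The tumors carried the epithelial transcripts of the line. The summed level of EPCAM, KRT8, KRT18 and KRT19 was 1145 to 1386 FPKM in vehicle-treated and 1108 to 1349 FPKM in WCE-treated tumors. Within this sum EPCAM, an adhesion protein of epithelia, was at 305, 250 and 185 FPKM in vehicle-treated and at 180, 138 and 123 FPKM in WCE-treated tumors. Its log2 difference was −0.73 (standard error 0.21), and −1.08 without the nearly identical pair. Its groups did not overlap, but the nearest values, 185 and 180 FPKM, were those of that pair. KRT8, KRT18 and KRT19 overlapped, at 0.05, 0.10 and −0.01, and at 0.07, 0.14 and −0.02 without the pair. Host cells are the other source of lysosomal RNA in a xenograft, since macrophages are rich in cathepsins. Of 10 leukocyte and macrophage markers, CD68 had a mean of at least 0.5 FPKM, the other 9 (PTPRC, CSF1R, AIF1, ITGAM, CD14, TYROBP, FCER1G, LYZ and CD163) were below it, and TYROBP was at 0 in each tumor. The sum of the list was 25.8 to 41.5 FPKM in vehicle-treated and 40.7 to 44.7 FPKM in WCE-treated tumors. It was nearly all CD68, which codes for a lysosomal membrane protein. CD68 overlapped, with a log2 difference of 0.37 (standard error 0.16), and 0.57 without the pair. Of 6 fibroblast markers 3 reached 0.5 FPKM, with sums of 49.99 to 59.8 and 45.0 to 73.9 FPKM, and of 5 endothelial markers 2 did, with sums of 1.20 to 3.37 and 3.21 to 7.60 FPKM. COL1A2, DCN, PDGFRB, CDH5, TEK and VWF were each below 0.5 FPKM. COL1A1, COL3A1 and PDGFRA overlapped, with log2 differences of −0.44, −0.51 and 0.93, and of −0.64, −0.79 and 1.39 without the pair. PECAM1 also overlapped, at 0.14 and, without the pair, 0.24. KDR, a receptor of vascular endothelial growth factor, was at 0.216, 0.247 and 0.529 FPKM in vehicle-treated and at 0.559, 1.59 and 5.12 FPKM in WCE-treated tumors. It was higher without overlap, but the nearest values, 0.529 and 0.559 FPKM, were low and were those of the nearly identical pair. Its log2 difference was 1.14 (standard error 0.44), and 1.69 without the pair. How reads of mouse cells were treated is not given in the sources used here. The part of host reads, and of the differences in these markers, in the results below was not tested.

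The 10 genes spanned a wide range of levels per length. CSTB was the most abundant, with a mean of 492 FPKM over the 6 tumors, above 98.7% of the 13287 entries compared. It was followed by CTSD at 313, CTSC at 250, CTSZ at 247 and CST3 at 210 FPKM. A second tier held CTSB at 72.5, LGMN at 58.0, CSTA at 52.4 and CTSH at 24.4 FPKM, and CST6 was the lowest at 6.93 FPKM, above 38.2% of the entries. Ranges over the tumors were apart between CSTB and CTSD, between CST3 and CTSB, and between CTSH and CST6, in each case with the same order in 6 of 6 tumors. The ranges of the other 6 pairs of neighbors overlapped, and the order of CTSC and CTSZ and of LGMN and CSTA held in 3 of 6 tumors. The plot of levels on a log axis shows these tiers.

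**Figure D1:**
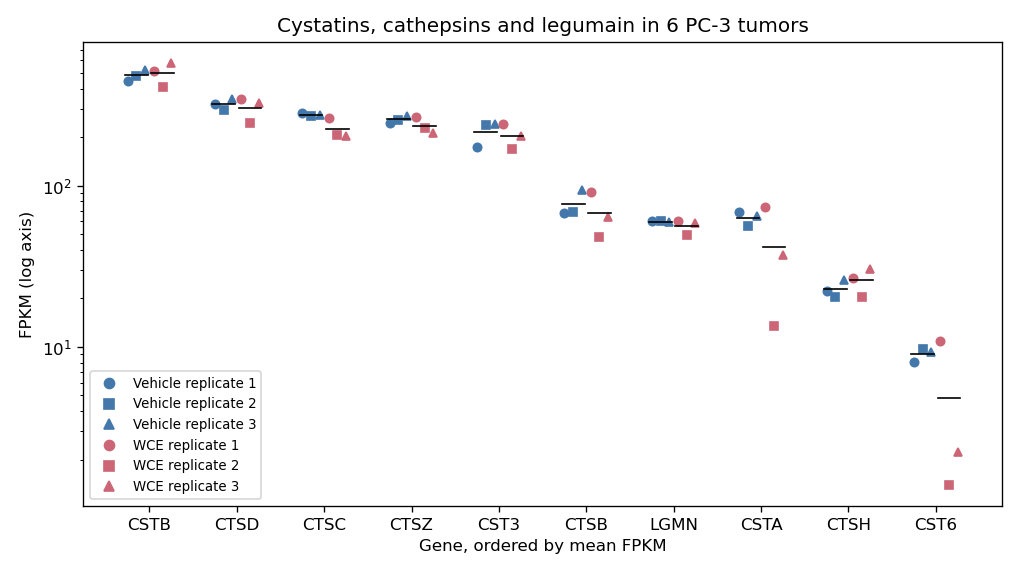
FPKM on a log axis for each of the 10 genes, ordered by mean level, with 1 point for each tumor (vehicle blue, WCE red; circle, square and triangle for replicates 1, 2 and 3) and a black line at each group mean of 3 tumors. CSTB lies at 408 to 573 FPKM at the top and CST6 at 1.39 to 10.9 FPKM at the bottom, and the low WCE points of CST6 and CSTA are those of replicates 2 and 3.

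Of the secreted inhibitors, CST6 (cystatin E/M) is listed on chromosome 11 from 65779462 to 65780976, in coordinates of hg19, the human build that the submitters' processing notes name. Vehicle-treated tumors had 8.09, 9.66 and 9.33 FPKM and WCE-treated tumors 10.9, 1.39 and 2.23 FPKM. WCE replicates 2 and 3 were thus at 15.4% and 24.7% of the vehicle mean, while WCE replicate 1, the member of the nearly identical pair, was at 121%, above each vehicle-treated tumor, so the groups overlapped. The group means were 9.03 ± 0.827 and 4.83 ± 5.25 FPKM (SD, n = 3 each), and the fitted log2 difference was −1.15 with a standard error of 0.53. In a bulk tumor, fewer cells that express a gene and less of its RNA per cell cannot be told apart.

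Without the nearly identical pair, the log2 difference of CST6 was −1.83 with a standard error of 0.19, and the mean of WCE replicates 2 and 3, at 1.81 FPKM, was 20.4% of that of vehicle replicates 1 and 2. Ordered from the largest fall, CST6 was at place 29 of 13287 entries in the comparison of 3 tumors with 3 and at place 23 in that of 2 with 2. As CST6 was chosen with this contrast known, its places and standard errors describe it and are no evidence of an effect. Without WCE replicate 1 alone the difference was −1.85, and without WCE replicate 2 it was −0.69. CST3 (cystatin C), the abundant secreted cystatin of body fluids, was at 173, 237 and 240 FPKM in vehicle-treated and at 240, 168 and 203 FPKM in WCE-treated tumors. Its groups overlapped broadly, with a log2 difference of −0.09 (standard error 0.18), and −0.13 without the pair. Without WCE replicate 2 the sign turned, to 0.041.

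Of the stefins, CSTA, an inhibitor best known from epidermis and other squamous epithelia, resembled CST6. It is listed on chromosome 3 from 122044011 to 122060815. Its levels were 68.4, 56.4 and 65.1 FPKM in vehicle-treated tumors and 73.6, 13.6 and 37.4 FPKM in WCE-treated tumors. WCE replicates 2 and 3 were at 21.4% and 59.1% of the vehicle mean and WCE replicate 1 was above the 3 vehicle-treated tumors, as for CST6. The log2 difference was −0.89 (standard error 0.51) over 6 tumors, −1.42 (standard error 0.45) without the nearly identical pair, −1.44 without WCE replicate 1 and −0.26 without WCE replicate 2, so that WCE replicate 2 carried most of it.

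CSTB, the broadly expressed stefin whose loss causes a progressive myoclonus epilepsy, was at 449, 481 and 524 FPKM in vehicle-treated and at 518, 408 and 573 FPKM in WCE-treated tumors. WCE replicate 2 was the lowest of the 6 tumors and WCE replicate 3 the highest. The log2 difference was 0.03 (standard error 0.15) and 0.06 without the pair, and it was below 0 without vehicle replicate 1, without WCE replicate 1 or without WCE replicate 3.

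CSTB and CST3 made up most of the cystatin transcripts. The summed FPKM of the 4 inhibitors was 699, 784 and 839 in vehicle-treated and 843, 591 and 816 in WCE-treated tumors, with overlap. CST6 made up 1.11% to 1.23% of the summed cystatin FPKM under vehicle and 1.29%, 0.235% and 0.273% in WCE replicates 1, 2 and 3. CSTA made up 7.19% to 9.79% under vehicle and 8.73%, 2.29% and 4.58% in the same 3 tumors. The ratio of the 4 cystatins to the 5 cysteine proteases (CTSB, CTSC, CTSH, CTSZ and LGMN), each as summed FPKM, was 1.03, 1.16 and 1.16 in vehicle-treated and 1.19, 1.07 and 1.43 in WCE-treated tumors, with overlap. This ratio covers only the named genes, without CTSL, and not every cystatin inhibits every protease in it. It is one of transcripts and says nothing of protein or activity.

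**Figure D2:**
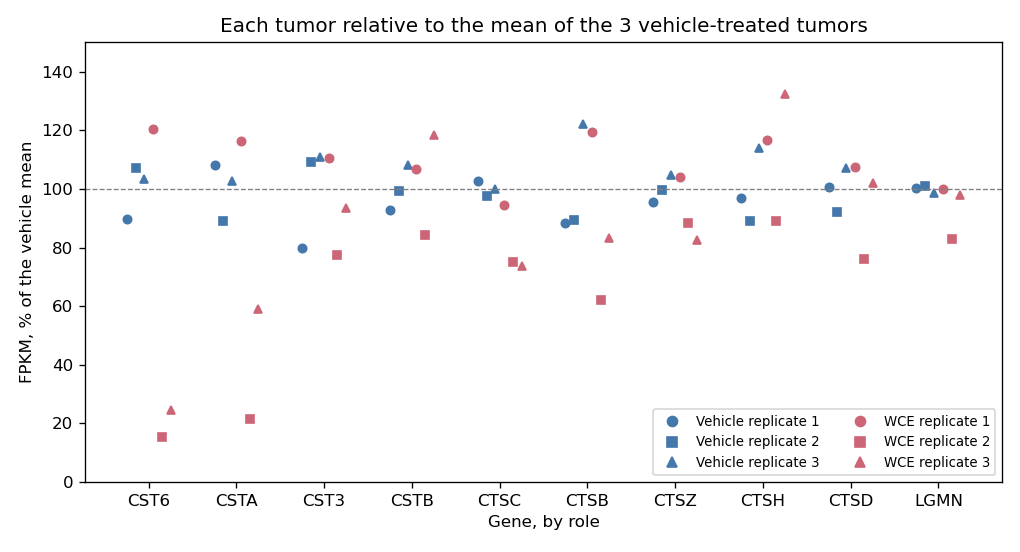
FPKM of each tumor as a percentage of the mean of the 3 vehicle-treated tumors, for the inhibitors (left 4 genes) and the proteases (right 6), with 1 point for each tumor and a dashed line at 100%. For CST6, WCE replicates 2 and 3 lie at 15.4% and 24.7% while WCE replicate 1 lies at 121%, and the points of the proteases stay closer to the line.

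Among the proteases, CTSC (cathepsin C, or dipeptidyl peptidase I) activates the granule proteases of leukocytes and is listed on chromosome 11 from 88026760 to 88070941. It was at 284, 270 and 276 FPKM in vehicle-treated tumors and at 261, 207 and 204 FPKM in WCE-treated tumors. Each WCE-treated tumor was below each vehicle-treated tumor, and the group means were 277 ± 7.07 and 224 ± 32.1 FPKM (SD, n = 3 each). WCE replicate 1, at 94.5% of the vehicle mean, was close to the vehicle-treated tumors, and WCE replicates 2 and 3 were at 75.0% and 73.8%. The log2 difference was −0.31 (standard error 0.12), and −0.43 (standard error 0.10) without the nearly identical pair. It was below 0 in each setting run, between −0.43 and −0.25.

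CTSC was the 1 gene of the 10 whose groups did not overlap, and it was lower under WCE. Over all 13287 entries, 6.4% were lower and 6.37% higher without overlap. Of the 10 genes, 8 had a fitted difference below 0 and 2, CSTB and CTSH, above 0, where 51.4% of all entries were below 0. The median log2 difference was −0.12 over the 10 genes and −0.0063 over all entries. Without the nearly identical pair, 6 of the 10 genes (CST6, CSTA, CTSB, CTSC, CTSZ and LGMN) were lower without overlap and 0 were higher, against 27.8% and 25.7% of all entries. In that comparison 8 again had a fitted difference below 0, beside 51.3% of all entries, and the medians were −0.17 and −0.0092. As the genes were chosen with this contrast known, these counts describe them and are no evidence of a direction.

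CTSB, a cathepsin that can both degrade proteins and trim their ends, is listed on chromosome 8 from 11700034 to 11725646. It was at 68.0, 69.0 and 94.2 FPKM in vehicle-treated and at 92.0, 47.8 and 64.1 FPKM in WCE-treated tumors, with a log2 difference of −0.21 (standard error 0.24). The high values were those of the nearly identical pair. Without that pair it was −0.30 (standard error 0.16), and without WCE replicate 2 alone it was 0.011.

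CTSZ, a carboxypeptidase, was at 247, 257 and 270 FPKM in vehicle-treated and at 268, 228 and 213 FPKM in WCE-treated tumors. Its log2 difference was −0.13 (standard error 0.11), and −0.19 (standard error 0.11) without the pair, again with the lowest values in WCE replicates 2 and 3. Without WCE replicate 3 it was −0.060 and without WCE replicate 1 −0.23. CTSH, an aminopeptidase, was at 22.3, 20.4 and 26.1 FPKM in vehicle-treated and at 26.8, 20.5 and 30.4 FPKM in WCE-treated tumors, with overlap and a log2 difference of 0.16 (standard error 0.16). It was 0.22 without the pair, 0.31 without WCE replicate 2, 0.035 without WCE replicate 3, 0.25 without vehicle replicate 3 and 0.079 without vehicle replicate 2.

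CTSD differs from the others in mechanism, being an aspartic protease that the cystatins do not inhibit. It was at 323, 296 and 344 FPKM in vehicle-treated and at 345, 244 and 327 FPKM in WCE-treated tumors, with a log2 difference of −0.09 (standard error 0.15) that was −0.13 without the pair and 0.068 without WCE replicate 2. Its listed locus on chromosome 11, from 1490685 to 1785501, is shared by 13 entries, whereas each of the other 9 genes has a locus of its own. LGMN, which cuts after asparagine and processes other cathepsins, was the steadiest of the 10 among vehicle-treated tumors, at 60.0, 60.6 and 59.2 FPKM, a coefficient of variation of 1.14%. In WCE-treated tumors it was at 60.0, 49.7 and 58.6 FPKM, with WCE replicate 2 lowest, and the log2 difference was −0.10 (standard error 0.10). It was −0.16 without the pair, −0.15 without WCE replicate 1, and −0.015 without WCE replicate 2, which carried most of it.

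**Figure D3:**
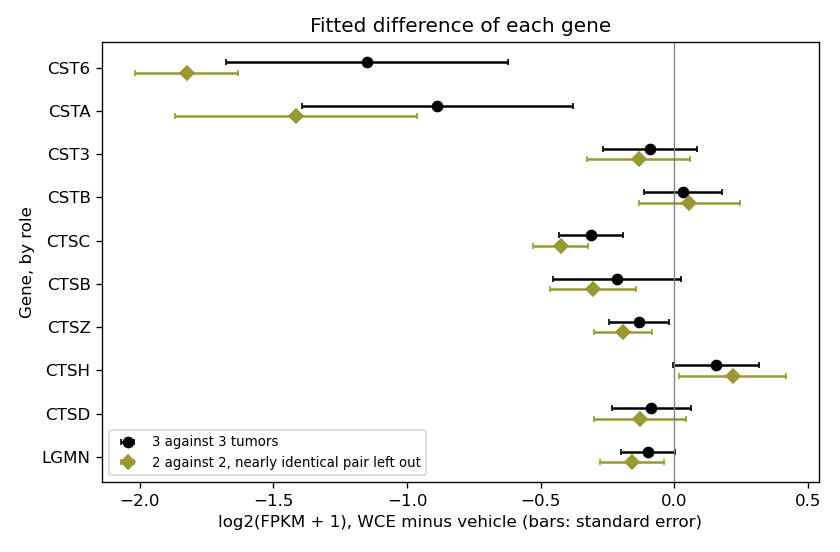
Fitted difference in log2(FPKM + 1), WCE minus vehicle, with its standard error, for each of the 10 genes in the comparison of 3 tumors with 3 (black circles) and without the nearly identical pair (olive diamonds). CST6 at −1.15 and −1.83 and CSTA at −0.89 and −1.42 lie farthest from 0, and the other 8 genes lie between −0.43 and 0.22 in both comparisons.

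To see which transcripts varied over the tumors as CST6 did, entries were ordered by their Pearson correlation with CST6 in log2(FPKM + 1) over the 6 tumors, among 13156 entries that are no small RNAs. Among the 5 highest were RBP7 (r = 0.997), GALNT3 (0.996), LOC100130899 (0.996) and DTD1 (0.995). These are descriptions over 6 points, of which 2 are nearly the same library. Each of these 4 was lowest in WCE replicates 2 and 3, which follows from the choice, as CST6 was lowest there. GALNT3, which starts mucin-type glycosylation, was at 22.7, 24.9 and 24.8 FPKM in vehicle-treated and at 24.3, 10.7 and 12.5 FPKM in WCE-treated tumors. RBP7, a cellular retinol-binding protein, was at 6.24, 6.64 and 6.33 FPKM and at 6.76, 3.73 and 3.98 FPKM. In that order CTSC was at place 232 (r = 0.939), CSTA at place 344 (r = 0.915) and CSTB at place 5044 (r = 0.236).

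The other genes of the pathway were taken from 9 lists of 100 genes written out by family and role, of which 83 were expressed at the level required for the comparison. After Benjamini-Hochberg adjustment over all 13287 entries in limma, 0 of the 83 passed an adjusted p of 0.05, and their lowest adjusted p was 0.623. At an unadjusted p under 0.05 in limma, 3 were lower and 3 higher in WCE-treated tumors, 7.23% of the 83, beside 7.1% of all entries (3.33% lower and 3.78% higher). Without the nearly identical pair the counts were 9 lower and 8 higher, 20.5% of the 83 beside 18.4% of all entries (9.59% lower and 8.84% higher), with 0 of the 83 and 0.0376% of all entries passing the adjustment. The share of the lysosomal genes at an unadjusted p under 0.05 by limma thus lay near that of all entries in both comparisons. Over 6 tumors, 10 of the 83 were lower and 5 higher without overlap, beside 6.4% and 6.37% of all entries. Of the 10 that were lower, 5 were subunits of the vacuolar proton pump. Over all entries, 1 (0.00753%) passed the adjustment in the comparison of 3 tumors with 3.

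The remaining cystatins were scarcely expressed. Of 10, CST1 and CST4 reached a mean of 0.5 FPKM, and CST8, CST9L, CST11 and CSTL1 were listed at 0 in each tumor. CST4, a salivary cystatin, was at 1.38, 1.30 and 8.53 FPKM in vehicle-treated and at 7.46, 0.209 and 0.668 FPKM in WCE-treated tumors, so both high values belonged to the nearly identical pair, and the log2 difference was −0.54 with the pair and −0.72 without it. CST1 was at 3.65 and 3.73 FPKM in that pair and below 1 FPKM in the other 4 tumors. CST1, CST2 and CST4 are close paralogs whose reads could have been divided among them.

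Of the other cathepsins, 8 of 10 were tested. None had an unadjusted p under 0.05 in the limma comparison of 3 tumors with 3, beside 7.1% of all entries. Without the nearly identical pair 2 of the 8 were higher and 1 lower at that threshold, beside 8.84% and 9.59% of all entries. CTSL and CTSV, the cathepsins that CST6 inhibits, are listed under the older symbols CTSL1 and CTSL2. CTSL was at 39.4, 46.2 and 48.4 FPKM in vehicle-treated and at 48.0, 40.3 and 42.3 FPKM in WCE-treated tumors, a log2 difference of −0.04 (standard error 0.12), and −0.05 without the pair. CTSV was at 4.88, 3.23 and 3.75 FPKM and at 4.04, 2.36 and 2.44 FPKM, a log2 difference of −0.34 (standard error 0.20), and −0.55 without the pair. CTSK, a collagen-degrading cathepsin of osteoclasts, had the largest positive difference of the lists, 0.63 (standard error 0.29, adjusted p = 0.623 by limma), at 2.34, 2.66 and 2.80 FPKM in vehicle-treated and 2.63, 7.83 and 4.36 FPKM in WCE-treated tumors. Without the pair it was 0.98. CTSE and CTSG were listed at 0 in each tumor.

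Serpins are a second family of inhibitors that can block cysteine cathepsins. SERPINB13 had the largest negative difference of the 83 genes, −0.84 (standard error 0.47, adjusted p = 0.623 by limma). It was at 7.79, 4.43 and 6.41 FPKM in vehicle-treated and at 7.23, 0.972 and 2.79 FPKM in WCE-treated tumors, with WCE replicates 2 and 3 lowest. Without the nearly identical pair the difference was −1.34. The near-identical paralogs SERPINB3 and SERPINB4, whose reads could have been divided between them, had log2 differences of −0.07 and 0.12, and of −0.03 and 0.16 without the pair. ELANE, PRTN3, GZMA and GZMB, granule proteases that CTSC activates, were all below the level required for the comparison.

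Of the lysosomal hydrolases and their activators, 28 were tested, 12 of them with a difference below 0 and a median of 0.05, which was −0.0036 without vehicle replicate 1 and 0.089 without the pair. Of all entries 51.4% were below 0. MAN2B1, PSAP and TPP1 were higher at an unadjusted p under 0.05 by limma and 0 were lower. These 3 were 10.7% of the 28, beside 3.78% of all entries higher and 3.33% lower. The groups of 4 of the 28 were higher without overlap and those of 2 lower, beside 6.37% and 6.4% of all entries. PSAP, the precursor of the saposins that help break down sphingolipids, was at 379, 403 and 468 FPKM in vehicle-treated and at 477, 542 and 511 FPKM in WCE-treated tumors, without overlap. Its log2 difference was 0.29 (standard error 0.12, adjusted p = 0.623 by limma, 0.0373 before adjustment). TPP1, a lysosomal tripeptidyl peptidase, also had groups that did not overlap, at 29.9, 34.7 and 35.6 against 37.3, 43.1 and 42.8 FPKM, and a log2 difference of 0.29. For PSAP and TPP1 the nearest values of the groups were those of the nearly identical pair. Groups that do not overlap stay apart when tumors are left out, so the comparison without the pair is no check of this. MAN2B1, the lysosomal alpha-mannosidase, had a log2 difference of 0.33 with overlap. Without the pair the differences were 0.43 for PSAP, 0.40 for TPP1 and 0.49 for MAN2B1. For these 3 genes the highest levels were those of WCE replicates 2 and 3. They were named for higher values under WCE, and WCE replicate 1 lay near vehicle replicate 3. That order therefore follows largely from the choice and is no evidence of a link to CST6.

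The vacuolar proton pump acidifies the lysosome, and 12 of its 14 tested subunits had a difference below 0, beside 51.4% of all entries, with a median log2 difference of −0.12. Under the 3 other scalings of the tumors 12 were below 0 as well, with medians from −0.11 to −0.071. Over the fits that left out 1 tumor 11 or 12 were below 0, with medians from −0.16 without vehicle replicate 3 to −0.066 without vehicle replicate 2, and without the pair 12 were, with a median of −0.16. The groups of 5 of the 14 subunits did not overlap, all 5 lower, beside 6.4% of all entries lower without overlap. Of the lists with tested genes, the pump had the largest share below 0, 85.7%, and the sorting genes below the smallest, 16.7% (1 of 6). The lists were chosen with earlier results of these data known, and genes measured in the same 6 tumors are not independent. These counts thus describe the pump and are no evidence of a direction. For ATP6AP2, ATP6V1A and ATP6V1D the nearest values of the groups were those of the nearly identical pair. Leaving that pair out could not make these groups overlap, so the comparison of 2 tumors with 2 is no check of this. ATP6V1A, the catalytic subunit, was at 27.9, 30.4 and 25.3 FPKM in vehicle-treated and at 23.5, 20.9 and 19.6 FPKM in WCE-treated tumors. Its groups did not overlap, with a log2 difference of −0.37 (standard error 0.11, adjusted p = 0.623 by limma, 0.0112 before adjustment). ATP6V1D had a log2 difference of −0.25 (unadjusted p = 0.0420 by limma), also without overlap, and the other 12 subunits did not pass the unadjusted threshold. Without the pair ATP6V1A was at −0.50 and ATP6V1D at −0.37. Of 11 lysosomal membrane proteins and 6 genes that sort enzymes to the lysosome, 0 had an unadjusted p under 0.05 in this limma fit. The adjustment was passed by 0. Without the nearly identical pair the unadjusted counts were 3 (2 lower and 1 higher) and 0, beside 18.4% of all entries. Of 11 regulators of lysosome biogenesis, RRAGA, a GTPase that recruits the mTOR complex to the lysosome, was lower at an unadjusted p of 0.0335 by limma (adjusted p = 0.623), from 36.8 ± 1.30 to 31.1 ± 1.94 FPKM (SD, n = 3 each). The log2 differences of RRAGA were −0.24 and, without the pair, −0.31.

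**Figure D4:**
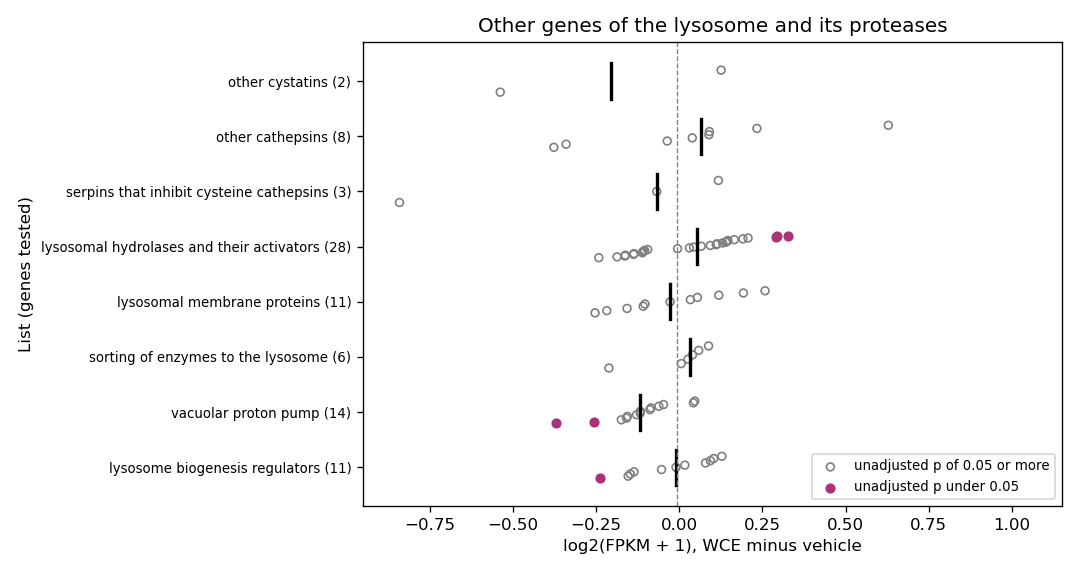
Difference in log2(FPKM + 1), WCE minus vehicle, for the 83 tested genes of the pathway lists, with 1 point for each gene, filled where the unadjusted p by limma was under 0.05, a black line at each list's median and a dashed line at the median of all entries (−0.0063). The 6 filled points are MAN2B1, PSAP and TPP1 to the right and ATP6V1A, ATP6V1D and RRAGA to the left.

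Many lysosomal genes carry the motif of TFEB, a transcription factor of lysosome biogenesis, near their start. The motif was searched as the palindrome TCACGTGA and as its core CACGTG, which the longer form contains, so that a match on a strand is also one on the other. Windows of RefSeq (build GRCh38.p14) from 250 bases before to 50 bases after a gene's start were at hand for 5 of the 10 genes (CST3, CTSC, CTSD, CTSH and CTSZ) and for 70 of the 100 genes of the lists. TCACGTGA was in the windows of 0 of the 5 genes and 11 of the 70, or 15.7%, against 1.18% of the 27305 genes with a window. The core was in 1 of the 5, CTSD, and in 20 of the 70, or 28.6%, against 8.77%. The stretches below are shown to set the match of CTSD beside matches in 4 other lysosomal genes. These 4 were picked from the 11 with the longer form after the expression values had been seen. Each stretch is given 5′ to 3′ on the strand of its gene with the match in capitals.
CTSD, chr11:1763958-1763985, minus strand: ccggccgcgccCACGTGaccggtccggg
CTSA, chr20:45891299-45891326, plus strand: gcgccggagtTCACGTGActcgtacaca
GAA, chr17:80101494-80101521, plus strand: ggaggccgcgTCACGTGAcccaccgcgg
LAMP1, chr13:113297200-113297227, plus strand: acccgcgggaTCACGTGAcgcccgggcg
MCOLN1, chr19:7522572-7522599, plus strand: ccagaggcggTCACGTGAggggctctgg

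The 4 other genes with these stretches differed in sign. CTSA, the protective protein of lysosomal galactosidase and sialidase, had a log2 difference of 0.23 (standard error 0.11). The acid alpha-glucosidase GAA was at 0.07 (standard error 0.10) and the lysosomal calcium channel MCOLN1 at 0.12 (standard error 0.09). LAMP1, a main glycoprotein of the lysosomal membrane, was at −0.22 (standard error 0.10), and at 120, 118 and 112 FPKM in vehicle-treated against 109, 90.4 and 101 FPKM in WCE-treated tumors. None of these 4 had an unadjusted p under 0.05 in the limma comparison of 3 tumors with 3. CTSA and LAMP1 did without the nearly identical pair, as did 18.4% of all entries. The differences without the pair were 0.34 for CTSA, 0.09 for GAA, 0.15 for MCOLN1 and −0.31 for LAMP1. The remaining genes with the longer form differed in sign as well. CLN3 (0.19), GNPTG (0.04), IGF2R (0.03) and NAGPA (0.006) were above 0 over 6 tumors. ATP6V0D1 (−0.09), ATP6V1G1 (−0.16) and GALNS (−0.16) were below 0. A match is a description of letters in a window and does not show that a factor binds there.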

How the data were processed

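RNA-seq of 6 PC-3 tumors, 3 vehicle-treated and 3 WCE-treated, was analyzed, with columns matched to tumors by the sample labels. The authors deposited FPKM values for 24000 gene entries in the layout of a Cufflinks table. The submitters' processing notes name TopHat2 2.0.13, Cufflinks, hg19 and mm10 without their roles. Scaling between tumors and the handling of mouse reads are not given in the sources used here. No counts were at hand, and 0 sample columns were left out.

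Entries with a mean of at least 0.5 FPKM over the 6 tumors (13287) were compared as log2(FPKM + 1) by a two-sided limma test (version 3.58.1, R 4.3.3) using a mean-variance trend, with Benjamini-Hochberg adjustment over all of them, a procedure tested on simulated data. A fold change on the log2(FPKM + 1) scale understates that of low genes. All differences are WCE minus vehicle. P-values reflect the spread between tumors of different mice and assume independent libraries, which the nearly identical pair breaks. Symbols were matched exactly or, for 4 genes, by older symbols from RefSeq. Listed starts were converted to count from 1.

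The 10 genes and the lists were chosen with earlier results of these data known. Named beside the 10 genes were up to 2 genes per list and direction with the lowest unadjusted p under 0.05, the 5 entries most like CST6 (1 of which is not reported here), and the cell markers. MAN2B1, CTSK, CTSL, CTSV, CST1, CST4, SERPINB3, SERPINB4, SERPINB13, LAMP1, CTSA, GAA and MCOLN1 were named after their values were seen. So were ATP6AP2, ATP6V0D1, ATP6V1G1, CLN3, GALNS, GNPTG, IGF2R and NAGPA. Relative depth was the commonest ratio of low values to those of vehicle replicate 3. Python 3.11.15, numpy 2.4.6, pandas 2.3.3 and matplotlib 3.10.9 were used for descriptions and figures. Alternatives were the pseudocount, filter, scaling, trend, tumor weights, a replicate block and tumors left out.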

Additional observations from a re-analysis of the deposited data

How the results depend on the processing

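The log2 difference of CST6 was below 0 in all 17 alternatives, from −1.85 without WCE replicate 1 to −0.69 without WCE replicate 2, so that both tumors moved it by over 1.5 times. The median of the 10 genes was below 0 in each, from −0.22 to −0.0018 over the fits that left out 1 tumor. CSTA, CTSC, CTSZ and LGMN kept a difference below 0 and CTSH one above 0 in the 17 alternatives, but 1 tumor moved some by over 1.5 times. CSTA was −0.26 and LGMN −0.015 without WCE replicate 2, CTSZ −0.060 without WCE replicate 3 and −0.23 without WCE replicate 1, and CTSH 0.035 without WCE replicate 3 and 0.31 without WCE replicate 2. Signs turned only in fits that left out 1 tumor. Over those fits CST3 ranged from −0.24 to 0.041, CTSB from −0.45 to 0.011 and CTSD from −0.18 to 0.068, each above 0 only when WCE replicate 2 was left out. CSTB ranged from −0.073 to 0.17 and was below 0 when vehicle replicate 1 (−0.020), WCE replicate 1 (−3.4e-05) or WCE replicate 3 was left out. The count of other cystatin, cathepsin and lysosomal genes with an unadjusted p under 0.05, 6 as designed, became 11 with no filter on low values, 23 with limma array weights, 17 without the nearly identical pair and 1 to 15 over the fits that left out 1 tumor (15 when WCE replicate 1 was the one removed, 2 for vehicle replicate 2, 1 each for vehicle replicate 1, WCE replicate 2 and WCE replicate 3). Over all entries, 944 had an unadjusted p under 0.05, against 3201 with array weights, 2449 without the pair and 219 to 2033 over the fits that left out 1 tumor. An adjusted p under 0.05 was reached by 1 entry, against 0 with no filter (1051 unadjusted), 5 without the pair and 1 to 7 over the fits that left out 1 tumor. The cause was not tested. A replicate block gave 8 lysosomal genes and 1049 entries at an unadjusted p under 0.05 and 1 adjusted, and it changed no other call. The replicate numbers mark no shared animal. The correlations between same-numbered tumors, taken on deviations from the group mean, were −0.24, 0.16 and −0.093. On that measure even the nearly identical pair reached only 0.36, so these values cannot show whether the numbers pair samples. The absolute depth is unknown, and low values are least precise in WCE replicate 1.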
